A study of Oryza sativa with 24 samples.

Results

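The genes described here are 3 rice genes of the BURP family, OsBURP07 (Os05g0217700), OsBURP02 (Os05g0217800) and OsBURP17 (Os11g0170900), out of 38866 genes in the deposited table. They were chosen by their behaviour in 1 contrast, wild-type scutella after 2 d on callus-inducing medium (CIM) against 2 d on hormone-free N6 medium, in which the first 2 fell and the last rose. The values of that contrast are therefore given as a description and were not tested, and neither were those of any other comparison of the 3 genes that uses the WT N6 or WT 2 d libraries. RNA was sequenced from scutella (labelled as mature embryos) of 2 genotypes in the Nipponbare background, a 35Spro:OsMIR393b line labelled OEMIR393b and wild-type (WT), each after 2 d on N6 medium and after 2, 5 and 7 d on CIM, with 3 libraries in each of the 8 groups. CIM carries the synthetic auxin 2,4-D. The line expresses the microRNA precursor OsMIR393b from the constitutive 35S promoter, it was studied as 1 line, and each library pooled the scutella of several seeds. The N6 cultures were all 2 d old, so that at 5 and 7 d the effect of CIM and the age of the culture cannot be told apart.

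BURP proteins are specific to plants and take their name from BNM2, USP, RD22 and PG1beta, the first members described. They carry a signal peptide, and their shared C-terminal domain holds cysteine and histidine residues in a conserved spacing. PG1beta is the non-catalytic subunit of a tomato polygalacturonase, an enzyme that cuts the pectin of the cell wall, RD22 of Arabidopsis is known as a gene that responds to drought and abscisic acid, and the RAFTIN proteins of cereals act in the anther tapetum. The roles of OsBURP07, OsBURP02 and OsBURP17 are not given by the table beyond the presence of the domain. The scutellum is the absorbing organ of the grass embryo and is the tissue from which rice callus arises on CIM. miR393 acts on the mRNAs of the auxin receptors OsTIR1 and OsAFB2.

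Library totals lay between 50341636 and 70796624 counts, and Spearman correlations between libraries of 1 group were 0.959 to 0.987. The line's labels could be checked by the miR393 targets: OsTIR1 was at 19.1 to 29.5 CPM (counts scaled to library size) in the 12 OEMIR393b libraries, against 69.4 to 117 CPM in the 12 WT libraries, and OsAFB2 at 54.9 to 90.5 CPM, against 96.2 to 156 CPM, with no overlap for OsTIR1 or OsAFB2. CPM were scaled by TMM factors. A count of 4 was more frequent than a count of 3 or 5 in all 24 libraries, so that about 4 counts appear to stand for 1 sequenced fragment. A gene at 0 was therefore given an upper limit of 12 counts per library, which corresponds to 0.14 to 0.246 CPM and covers counting error only. The deposited FPKM of such a gene is written as 0.0001 and stands for 0.

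OsBURP07 and OsBURP02 are neighbours on the plus strand of chromosome 5. In IRGSP-1.0 coordinates OsBURP07 occupies chr5:7249980-7251356 and OsBURP02 chr5:7255510-7257163, and the table lists no gene in the 4153 bases between them. OsBURP17 lies at chr11:3463917-3467995 on the minus strand. A further 3 BURP genes are on chromosome 5, OsBURP01 and OsBURP06 to the left and OsBURP08 to the right of the pair, and the 5 genes span 345 kb that hold 31 genes of the table. The kit used does not mark the strand of the RNA, and reads shared between OsBURP07 and OsBURP02, if any, could not be told apart here.

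**Figure D1:**
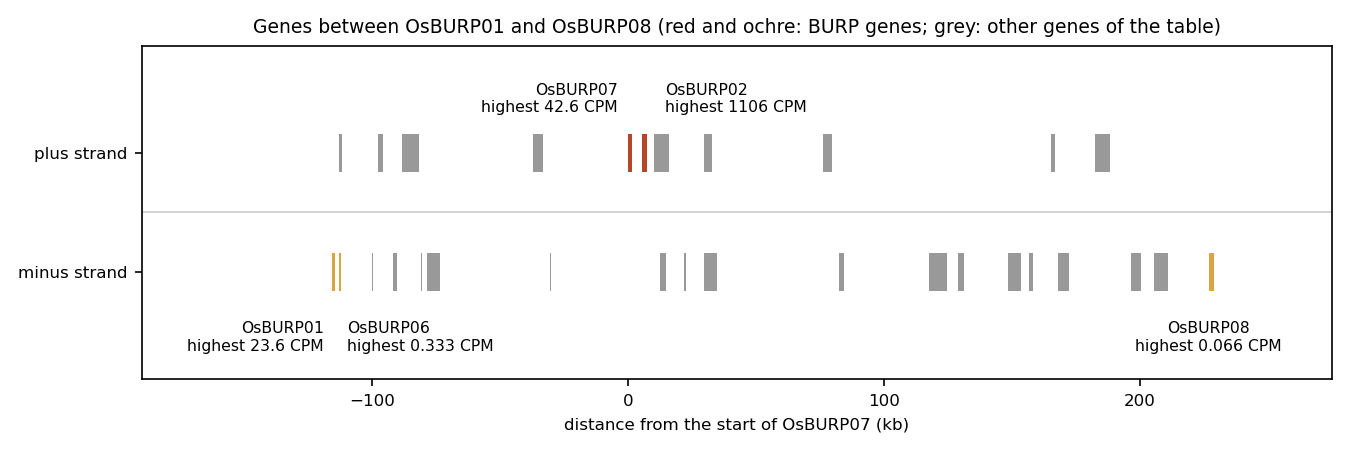
The horizontal axis gives the distance from the start of OsBURP07 in kb, and genes of the plus strand are drawn above those of the minus strand; the 2 chosen genes are red, the other BURP genes ochre and all other genes of the table grey. OsBURP07 and OsBURP02 stand side by side, and the highest level in any library ranged from 0.066 CPM (OsBURP08) to 1106 CPM (OsBURP02) among the 5 BURP genes.

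OsBURP02 was the most abundant BURP gene on N6, with a mean deposited FPKM of 693 ± 55.4 in the OEMIR393b line and 224 ± 174 in WT (SD, n = 3 each), and it was lower on CIM than on N6 in both genotypes. In the line its level was 1106, 1017 and 942 CPM on N6, 196, 428 and 247 CPM at 2 d on CIM, 107, 183 and 304 CPM at 5 d, and 10.1, 10.6 and 36.2 CPM at 7 d. By deposited FPKM it ranked between 91 and 118 among all genes in the N6 libraries of the line. In WT it was at 552, 328 and 67.2 CPM on N6, with 1 library well under the other two, and at 3.93, 3.46 and 2.68 CPM at 2 d on CIM. At 5 d only 1 WT library held counts of it, 0, 8 and 0, and at 7 d the counts were 8, 0 and 8. Every OEMIR393b library was thus above every WT library of the same culture.

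In the line the N6 and CIM libraries did not overlap at any time. The 2 d difference, of -1.82 on the log2 scale (SE 0.62), did not pass edgeR's quasi-likelihood test (adjusted p = 0.15), whereas the level was lower at 5 d by a log2 fold change of -2.37 (SE 0.64, adjusted p = 0.011) and at 7 d by -5.75 (SE 0.74, adjusted p = 5.5e-06). With only the N6 and 2 d libraries of the line in the fit, the 2 d value was -1.81 with adjusted p = 0.013. The step on CIM between 5 and 7 d was itself a fall of -3.38 (SE 0.67, adjusted p = 0.0024), with adjusted p = 0.078 when only those 6 libraries were fitted. Without replicate 3 of the 7 d libraries, the highest of that group, the fold changes of 7 d against N6 and against 5 d were -6.62 and -4.26. A call needed an adjusted p below 0.05 and an absolute log2 fold change above 1. Of the 29710 genes tested, 1.59% were called at 2 d in the line, 10.6% at 5 d, 22.5% at 7 d, and 7.08% between 5 and 7 d.

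In WT the chosen contrast gave a log2 fold change of -6.56 for OsBURP02 at 2 d, a mean of 3.36 ± 0.628 CPM on CIM, against 316 ± 243 CPM on N6 (SD, n = 3), and -5.88 without WT N6 replicate 1, the highest of its group. In that contrast 8.31% of all genes were called. At 5 and 7 d the WT libraries were at or below the limit of detection set above, so that no fold change is given, and none of them overlapped with the WT N6 libraries.

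Between the genotypes OsBURP02 was higher in the line at 5 and 7 d on CIM. The groups compared hold none of the libraries by which the gene was chosen, although those libraries entered the shared estimate of the spread. The line was at 198 ± 99.7 CPM and 19 ± 14.9 CPM (SD, n = 3 each), against at most 8 counts in any WT library, with adjusted p = 5.2e-08 at 5 d and 6.3e-07 at 7 d. Among all genes 26.7% were called between the genotypes at 5 d and 39.0% at 7 d. On N6 it averaged 1021 ± 82.2 CPM in the line and 316 ± 243 CPM in WT, a log2 difference of 1.69 (SE 0.62), and 2.37 without WT N6 replicate 1. At 2 d on CIM the means were 290 ± 122 CPM in the line and 3.36 ± 0.628 CPM in WT, a ratio of 86.4 and a log2 difference of 6.43 (SE 0.77). The change at 2 d on CIM against N6 was 4.74 higher on the log2 scale in the line than in WT (SE 0.91), and 4.07 higher without WT N6 replicate 1. The N6 and 2 d values are descriptions with no test, since their WT libraries chose the gene.

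**Figure D2:**
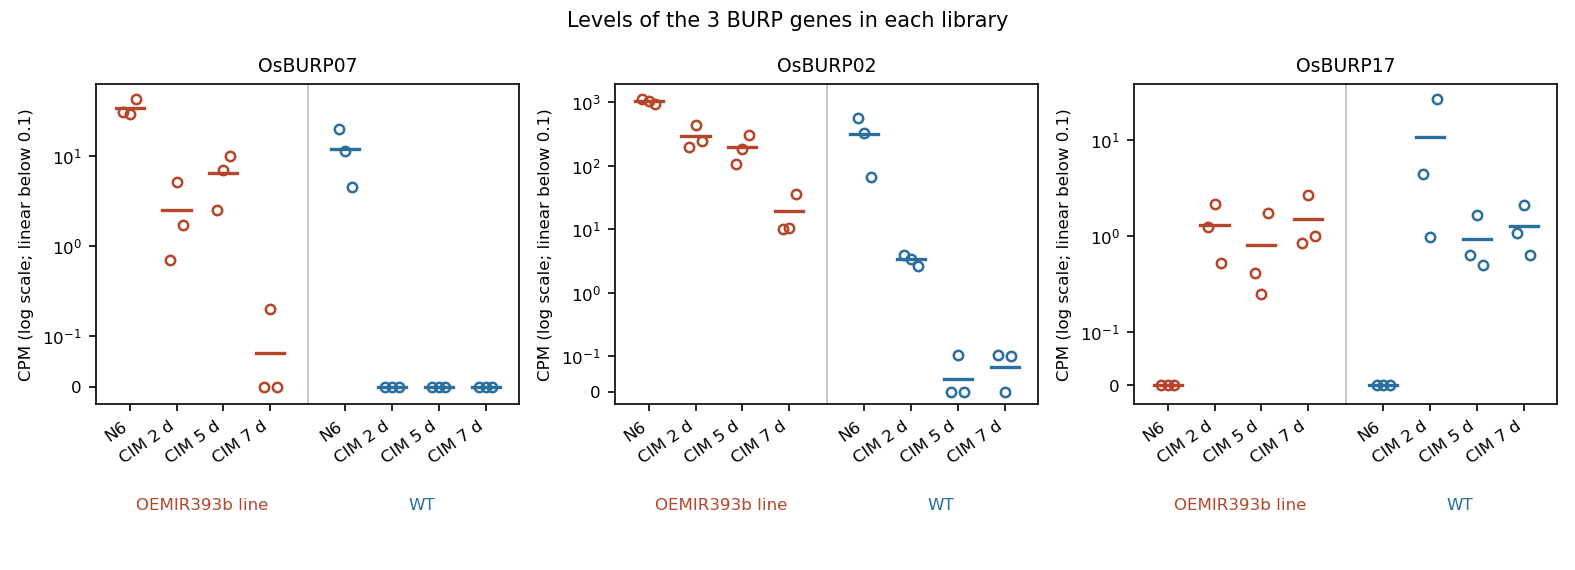
Each circle is the CPM of 1 library and each bar the mean of the 3 libraries of a group, with the OEMIR393b line to the left of WT; the vertical axes are logarithmic above 0.1 CPM and linear below. OsBURP07 and OsBURP02 are lower on CIM than on N6 in both genotypes, at 0 in all 9 WT libraries on CIM for OsBURP07, and OsBURP17 is at 0 in all 6 N6 libraries and above 0 in all 18 libraries on CIM.

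OsBURP07 showed the same direction as its neighbour at a much lower level. In the line it was at 30.7, 29.2 and 42.6 CPM on N6, 0.703, 5.11 and 1.72 CPM at 2 d, 2.5, 6.97 and 9.95 CPM at 5 d, and at 0, 12 and 0 counts at 7 d. In WT it was at 20, 11.4 and 4.48 CPM on N6 and had a count of 0 in all 9 libraries on CIM. The 2 genotypes did not overlap on N6, at 2 d or at 5 d, and both were at or below the limit of detection at 7 d.

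Within the line OsBURP07 was lower at 2 d by a log2 fold change of -3.77 (SE 0.84, adjusted p = 0.035) and at 5 d by -2.40 (SE 0.79, adjusted p = 0.043). The 2 d call was lost without any 1 of the OEMIR393b N6 libraries, without OEMIR393b 2 d replicate 1 or 3 and without WT N6 replicate 2, with adjusted p between 0.05 and 0.14, and without OEMIR393b 2 d replicate 2 the value was -4.81 (adjusted p = 0.028). The 5 d call was lost without any 1 of the OEMIR393b N6 or 5 d libraries, without OEMIR393b 2 d replicate 3 and without WT N6 replicate 2, with adjusted p between 0.054 and 0.11, and under DESeq2 (adjusted p = 0.14). At 7 d, where the gene had nearly disappeared, the adjusted p was 4.1e-05 against N6 and 0.0022 against 5 d, the second becoming 0.08 when only those 6 libraries were fitted.

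In WT, OsBURP07 was at least 58.8-fold lower at 2 d on CIM than on N6, a bound set by the limit of 12 counts per library, and the bound was 39.0-fold without WT N6 replicate 1. At 5 and 7 d it was at least 76.6-fold and 79.9-fold lower, and at least 50.9-fold and 53.0-fold lower without that library. Against WT at 5 d, where no library took part in the choice, the line was at least 41.4-fold higher (adjusted p = 6.3e-05). On N6 the log2 difference between the line and WT was 1.51 (SE 0.77), and 2.1 without WT N6 replicate 1. At 2 d the line was at least 12.3-fold higher, a bound of 5.95-fold without OEMIR393b 2 d replicate 2, which held 67.8% of the summed CPM of its group. The N6 and 2 d differences and the WT bounds were not tested.

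The ratio between the neighbours varied over the cultures of the line. Where both were above 12 counts, in 12 libraries, the deposited FPKM of OsBURP02 was 11.7 to 222 times that of OsBURP07 with a median of 25.5. The ratio was 222, 65.4 and 113 in the 2 d CIM libraries of the line, against 28.1, 27.2 and 17.3 in its N6 libraries. At 5 d it was back at 33.4, 20.6 and 23.9, and in the WT N6 libraries it was 21.6, 22.5 and 11.7. The 2 d libraries of the line thus lay apart from all other libraries with a ratio. On the log2 scale their mean ratio was 2.32 above that of the N6 libraries, with a two-sided exact permutation p of 0.1, the smallest that 3 against 3 libraries allow. This comparison was picked after the ratios had been seen.

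OsBURP17 behaved in the opposite way and stayed low. It had a count of 0 in all 6 N6 libraries of both genotypes and was above 0 in all 18 libraries on CIM. In the line its level was 1.23, 2.18 and 0.52 CPM at 2 d, 0.414, 0.248 and 1.76 CPM at 5 d, and 0.849, 2.65 and 1.01 CPM at 7 d. In WT it was 4.46, 0.984 and 26.9 CPM at 2 d, 0.63, 1.66 and 0.502 CPM at 5 d, and 1.08, 2.13 and 0.631 CPM at 7 d. A single library, replicate 3 of WT at 2 d, held 83.2% of the summed CPM of its group, and the mean of the other two was 2.72 CPM.

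In the chosen contrast OsBURP17 was at least 59.2-fold higher at 2 d on CIM than on N6, and at least 15.0-fold higher without that replicate 3. The libraries of the line, which took no part in the choice, gave levels at least 6.91-fold higher than on N6 at 2 d, 4.25-fold at 5 d and 7.94-fold at 7 d, with adjusted p = 0.023, 0.0067 and 0.0012. The bounds rested in part on the highest library of each group. They were 4.61-fold without OEMIR393b 2 d replicate 2 and 4.91-fold without 7 d replicate 2. At 5 d the bound was 1.74-fold without replicate 3, which held 72.6% of the summed CPM of its group. The 2 d call of the line was lost without any 1 of its N6 libraries or without 2 d replicate 1 or 2 (adjusted p 0.055 to 0.084). With counts divided by 4 the adjusted p was 0.089 at 2 d and 0.052 at 5 d. In WT the bound, which was not tested, was 5.12-fold at 5 d, 3.11-fold there without WT 5 d replicate 2, and 7.05-fold at 7 d.

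Between the genotypes OsBURP17 could not be distinguished at 5 and 7 d beyond the spread of the libraries. At 5 and 7 d the log2 differences were -0.22 (SE 1.00, adjusted p = 0.88) and 0.23 (SE 0.98, adjusted p = 0.86), with overlapping libraries. The sign turned at 5 d without OEMIR393b 5 d replicate 1 (0.10) or 2 (0.21) or WT 5 d replicate 2 (0.48), and at 7 d without OEMIR393b 7 d replicate 2 (-0.46) or WT 7 d replicate 3 (-0.09). At 2 d it averaged 1.31 ± 0.836 CPM in the line and 10.8 ± 14.1 CPM in WT (SD, n = 3 each), with overlapping libraries and a log2 difference of -3.04 (SE 1.05), which was -1.06 without WT 2 d replicate 3 and was not tested.

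Ordered by group mean, OsBURP07 and OsBURP02 both ran from OEMIR393b N6 to WT N6 and then to the line's 2 d and 5 d cultures on CIM, with no overlap between OEMIR393b N6 and WT N6 and with overlap between WT N6 and the next group. For OsBURP02 the line at 5 d, the line at 7 d, WT at 2 d and WT at 7 d followed each other without overlap. For OsBURP07 the only other gap lay between the 2 d and the 7 d cultures of the line. The 6 CIM groups of OsBURP17 overlapped each with the next, from WT at 2 d, the highest, to the line at 5 d, the lowest. Over the 24 libraries the Pearson correlation of log2 CPM was 0.87 between OsBURP07 and OsBURP02, -0.72 between OsBURP07 and OsBURP17 and -0.51 between OsBURP02 and OsBURP17, a description over libraries that share their cultures. The 24 include the WT N6 and WT 2 d libraries in which the genes were chosen for opposite changes. The signs of these correlations are therefore in part set by the choice.

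Of the marker lists, taken from words in the annotation, the photosynthesis list moved with OsBURP02 in part. It was lower on CIM than on N6 in both genotypes and higher in the line than in WT. No other list shared both traits in every culture. The amylase list, described below, was higher in every library of the line than in any WT library. The means of the seed storage list, also below, were lower on CIM than on N6 at each time in both genotypes. In bulk samples fewer cells of a type and less RNA per cell cannot be told apart. A list of 19 genes, mostly for chlorophyll a/b-binding proteins and with 5 genes at 0 in every library, summed to 286 to 431 CPM in OEMIR393b N6, 69.6 to 139 CPM at 2 d, 55.4 to 152 CPM at 5 d and 28.9 to 50.8 CPM at 7 d. In WT it summed to 35.7 to 75.8 CPM on N6 and 5.88 to 11.2 CPM at 2 d. At 5 d the sum was 9.39 to 11.4 CPM there and at 7 d 11.3 to 15.3 CPM. The list's WT means thus rose over the CIM cultures, at 8.27, 10.4 and 13.3 CPM. OsBURP02 instead went from a WT mean of 3.36 CPM at 2 d to at most 8 counts. In the line the list's means at 2 and 5 d were 104 and 111 CPM. Of its 14 tested genes, 3 were lower at 2 d in the line and 9 in WT, and 9 were higher in the line than in WT in each of the 4 cultures. At 7 d 10 were lower and 2 higher in the line, and 9 lower and 3 higher in WT, beside 22.5% and 28.9% of all genes called. Over all genes 1.59% were called at 2 d in the line and 8.31% in WT, and between the genotypes 2.97% on N6, 6.65% at 2 d, 26.7% at 5 d and 39.0% at 7 d. Like OsBURP02 it was higher in every library of the line than in any WT library of the same culture and lower at 7 d than on N6 in both genotypes, and its part in the results for OsBURP02 and OsBURP07 was not tested.

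A list of 13 genes, alpha-amylases with the gibberellin-related GAMYB and GASR1, markers of the germinating scutellum and aleurone, had no gene at 0 in every library. It summed to 16787 to 35288 CPM in all cultures of the line, against 7436 to 9277 CPM in WT on N6, 4496 to 16423 CPM at 2 d and 675 to 2753 CPM at 5 and 7 d. Like OsBURP02, it was thus higher in every library of the line than in any WT library of the same culture. Between the genotypes 3 of its 13 genes were higher in the line on N6 and 3 at 2 d, with none lower. At 5 d 7 were higher and 2 lower, and at 7 d 7 were higher and 4 lower. Over all genes 2.97%, 6.65%, 26.7% and 39.0% were called there. In the line none of its 13 genes was called at 2 d and 5 were lower at 7 d, beside 1.59% and 22.5% of all genes called, and the sum did not decline on CIM there while OsBURP02 did. The root list, of 4 genes including RCc2 and RCc3 with none at 0 in every library, summed to 259 to 333 CPM in the line at 2 d on CIM, against 116 to 167 CPM on N6, and to 552 to 789 CPM in WT at 2 d, against 151 to 271 CPM on N6. It was thus highest in WT at 2 d, in every library there. The mean of OsBURP17 was highest in that group too, but the group took part in choosing the gene. Replicate 3 held 83.2% of the summed CPM of OsBURP17 there. At 7 d the root list summed to 61.8 to 75.7 CPM in the line and to 41.4 to 54.8 CPM in WT, and at 5 d to 147 to 169 CPM in the line and 49.1 to 91.0 CPM in WT. At 7 d in both genotypes and at 5 d in WT it thus lay below N6. OsBURP17 was above its zeros on N6 in those cultures. Its part in the results for OsBURP17 was not tested. The oleosin list had 7 genes, with none at 0 in every library. It summed to 226 to 460 CPM in WT at 5 and 7 d, against 10.3 to 46.3 CPM on N6 and at 2 d. In the line the list summed to 3.82 to 89.0 CPM. In WT it was thus high where OsBURP02 was lowest. OsBURP07 was at 0 in WT at 2 d as well, where the list summed to at most 46.3 CPM. In the line the means of the list, of OsBURP07 and of OsBURP02 were all lowest at 7 d. The seed storage list, of 50 glutelin and prolamin genes with 2 at 0 in every library, summed to 1063 to 1338 CPM at 7 d on CIM in the line, against 1872 to 2016 CPM on N6, and to 733 to 936 CPM at 7 d in WT, against 1683 to 2217 CPM on N6. Of its 38 tested genes none was called at 2 d in the line and 1 was lower in WT, beside 1.59% and 8.31% of all genes. At 5 and 7 d, 13 and 14 were lower in the line and 27 and 30 in WT, beside 10.6%, 22.5%, 27.1% and 28.9%. Between the genotypes none was called on N6 or at 2 d (2.97% and 6.65% of all genes). At 5 and 7 d, 13 and 25 were higher in the line and none lower, beside 26.7% and 39.0%. The part of the amylase, oleosin and storage lists in the results was not tested.

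**Figure D3:**
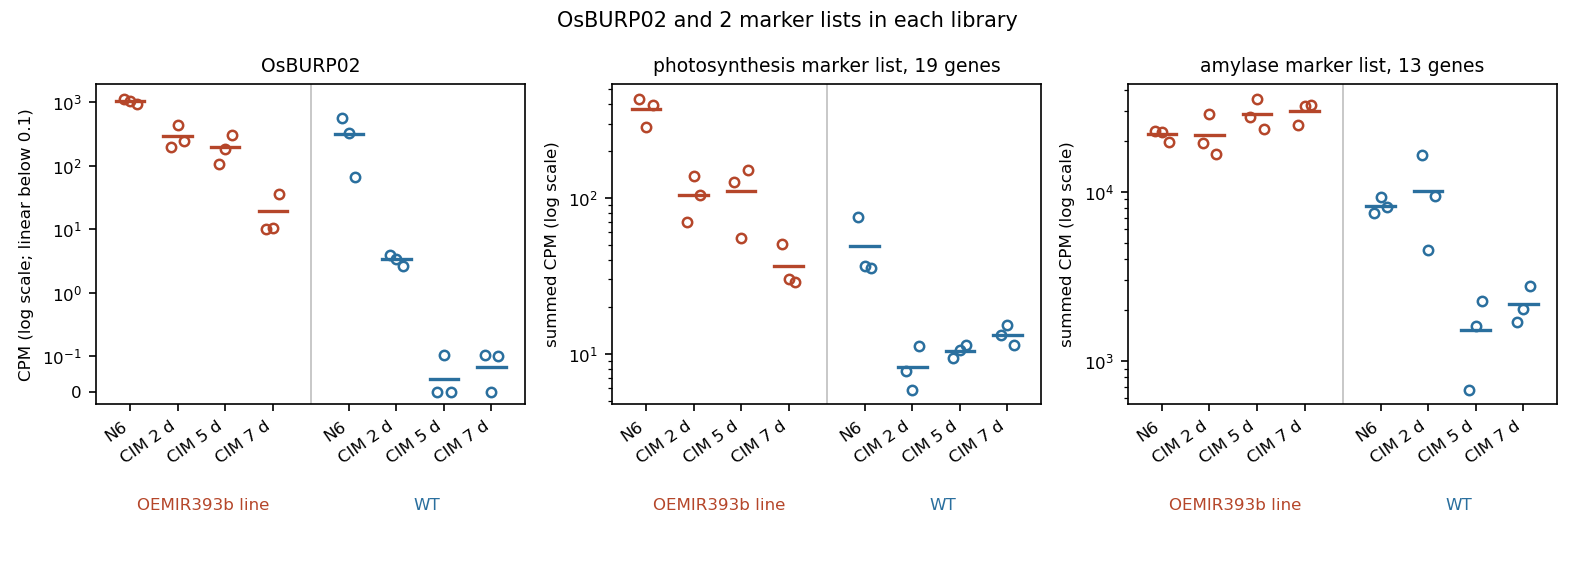
Circles are single libraries and bars the means of 3, with the OEMIR393b line to the left of WT, for OsBURP02 in CPM and for the summed CPM of the photosynthesis and amylase marker lists, all on logarithmic axes (linear below 0.1 CPM for OsBURP02). The photosynthesis list is higher in the line than in WT in every culture and lower on CIM than on N6. The amylase list stays between 16787 and 35288 CPM in the line, above every WT library.

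The table names 20 BURP genes, of which 10 passed the filter on low counts. Of the 10 that did not, 5 were at 0 in every library, among them OsBURP05 and OsBURP11, and the highest count among the rest was 28 (OsBURP04). OsRAFTIN1, the rice relative of the tapetum proteins, reached 8 counts. Besides the 3 chosen genes the tested members were OsBURP01, OsBURP06, OsBURP09, OsBURP10, OsBURP12 and 2 genes that the table calls RD22, Os01g0733500 and Os10g0409400. Levels are given in CPM and not compared between genes of different length.

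Of these 7 genes none was called at 2 d in the line, 2 fell at 5 d and 3 at 7 d, and none rose. These comparisons called 1.59%, 10.6% and 22.5% of all genes. In WT 1 fell at 2 d, 3 fell and 1 rose at 5 d, and 3 fell and 2 rose at 7 d. Of all genes 8.31%, 27.1% and 28.9% were called there. The median log2 fold change of all 10 tested BURP genes was -2.29 at 7 d in the line and -1.65 at 7 d in WT. Over all genes tested it was -0.02 and 0.02. The 10 include the 3 genes chosen for their change, and the WT N6 libraries took part in the choice. These medians are therefore no result about the family. Among the 7 other genes the middle value at 7 d was -1.65 (OsBURP06, SE 2.49) in the line and -0.47 (OsBURP12, SE 0.38) in WT, and neither was called. OsBURP06 had at most 22 counts in any library of the line on N6 and at most 6 at 7 d, so that its value is poorly known. Between the genotypes none of the 7 differed on N6, 1 was higher in the line at 2 d, 3 were higher and 1 lower at 5 d, and 1 was higher and 1 lower at 7 d. Here 2.97%, 6.65%, 26.7% and 39.0% of all genes were called. The difference between the genotypes in the change against N6 passed the test for none of the 7 at 2 d, 3 at 5 d and 2 at 7 d. The same test called 0.535%, 18.3% and 31.6% of all genes. At such shares none of 7 genes on N6 or at 2 d in the line, or 2 of 7 between the genotypes at 7 d, is no result about these genes. The 2 calls at 5 d in the line were both lost without single libraries: OsBURP12 (adjusted p = 0.024) had adjusted p between 0.055 and 0.1 without OEMIR393b N6 replicate 1 or 3 or 5 d replicate 2 or 3, and Os01g0733500 (adjusted p = 0.048) lost the call without any 1 of 20 of the 24 libraries.

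Os01g0733500, called RD22 after the Arabidopsis drought gene, was also lower at 7 d on CIM in both genotypes. It averaged 24.7 ± 6.18, 23.2 ± 9.07, 7.74 ± 1.64 and 2.28 ± 1.46 CPM in the line on N6 and at 2, 5 and 7 d on CIM, and 14.2 ± 2.30, 6.20 ± 4.47, 0.727 ± 0.271 and 1.24 ± 0.700 CPM in WT (SD, n = 3). It fell in the line at 7 d (log2 fold change -3.44, SE 0.64, adjusted p = 0.00025) and in WT at 5 d (-4.29, SE 0.68, adjusted p = 3.7e-05). The line was higher than WT at 5 d by 3.41 (SE 0.66, adjusted p = 0.00027). At 2 d its log2 fold change was -0.09 (SE 0.58, adjusted p = 0.98) in the line and -1.19 (SE 0.59, adjusted p = 0.18) in WT. It was the gene called higher in the line at 2 d, by 1.90 (SE 0.60, adjusted p = 0.035), a call lost without OEMIR393b 2 d replicate 2 or 3 or WT 2 d replicate 2 (adjusted p 0.073 to 0.13). The other gene of that name, Os10g0409400, which the table describes as a polygalacturonase beta subunit, averaged 7.47 ± 7.92 CPM in the line and 3.07 ± 2.34 CPM in WT on N6 and was at most 0.948 ± 0.256 CPM in any group on CIM. It was called lower in WT at 2 d (adjusted p = 0.0084), 5 d (adjusted p = 0.00071) and 7 d (adjusted p = 0.029) and in the line at 7 d (adjusted p = 0.023). The 7 d call in WT was lost without WT N6 replicate 1 or 2 or WT 7 d replicate 1 or 3, and that in the line without OEMIR393b N6 replicate 3 or 7 d replicate 1 or 2 (adjusted p 0.05 to 0.16).

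OsBURP01, 116 kb from OsBURP07, did not follow the pair in the line. It stayed between 9.84 and 11.9 CPM as a group mean in the line, and none of its comparisons with N6 there passed the test. In WT it averaged 15.3 ± 7.27 CPM on N6, 15.4 ± 4.06 CPM at 2 d and 2.13 ± 0.541 CPM at 5 d, a log2 fold change at 5 d of -2.84 (SE 0.63, adjusted p = 0.001). At 5 d the line was higher than WT by 2.48 (SE 0.63, adjusted p = 0.0027).

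OsBURP12, annotated as similar to the polygalacturonase beta subunit, went the other way between the genotypes. In the line it averaged 19.8 ± 0.655 CPM on N6, 18.1 ± 2.36 CPM at 2 d, 8.22 ± 5.42 CPM at 5 d and 2.61 ± 1.84 CPM at 7 d, a log2 fold change of -2.92 at 7 d (SE 0.42, adjusted p = 1.6e-05). In WT its group means stayed between 20.5 and 32.9 CPM, so that at 7 d the line was lower than WT by -3.18 (SE 0.42, adjusted p = 2.3e-06).

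OsBURP10 was at 0 in all 6 N6 libraries, as OsBURP17 was, and at 0 in the line at 2 d. It averaged 0.223 ± 0.0726 CPM in the line and 1.78 ± 1.52 CPM in WT at 5 d, where WT passed the test against N6 (adjusted p = 0.0083) and the line did not (adjusted p = 0.083). The difference between the genotypes at 5 d did not pass (log2 difference -2.98, SE 1.72, adjusted p = 0.17). OsBURP06, which overlaps a table gene on the opposite strand, reached at most 0.333 CPM in any library and OsBURP09 at most 0.536 CPM. OsBURP09 was called higher in WT at 7 d (adjusted p = 0.04), a call lost without any 1 of the WT N6 libraries or without WT 7 d replicate 1 or 2 (adjusted p 0.061 to 0.092).

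**Figure D4:**
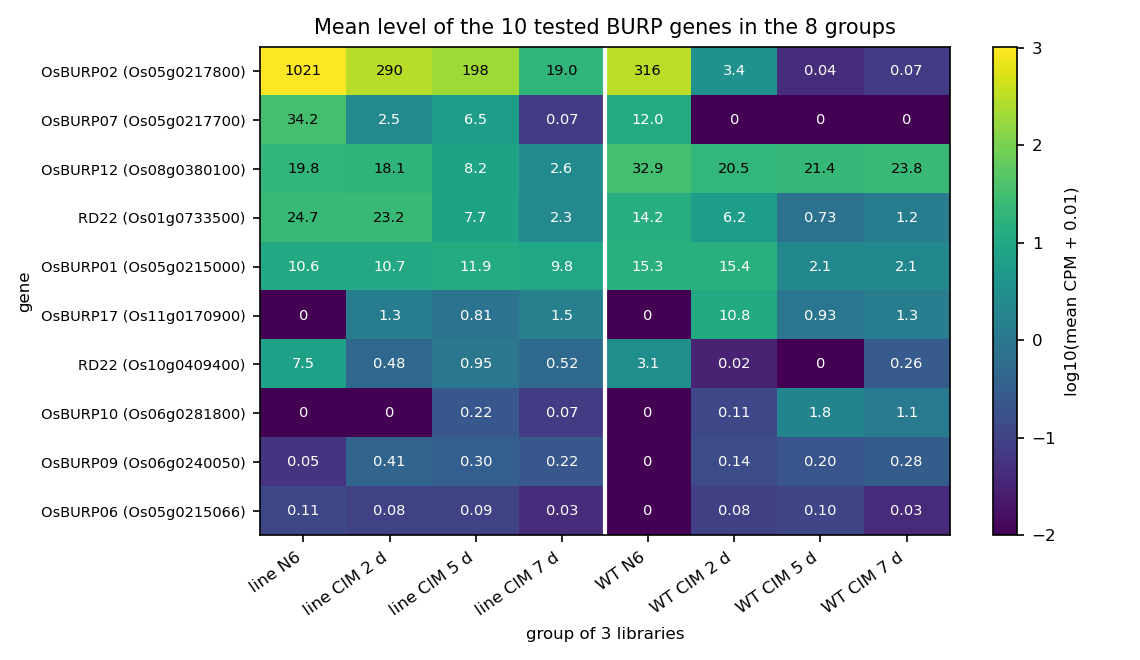
Each cell gives the mean CPM of 3 libraries for 1 of the 10 tested BURP genes, with the colour on a log10 scale and the 4 groups of the OEMIR393b line to the left of those of WT. OsBURP02 spans the widest range, between 1021 and 0.035 CPM, and OsBURP17 and OsBURP10 are the genes at 0 on N6 in both genotypes.

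Because PG1beta binds polygalacturonase, genes whose annotation holds the name of a pectin-degrading enzyme were counted beside the BURP genes. Inhibitors of these enzymes were not taken out of this list. The table holds 156 such genes outside the BURP list, and 93 were tested. At 2 d 1 of the 93 was higher and none lower in the line, and 4 were higher and 5 lower in WT. This is 1.08% and 9.68% of the list beside 1.59% and 8.31% of all genes. At 7 d 5 were higher and 27 lower in the line, and 12 higher and 27 lower in WT. This is 34.4% and 41.9% of the list beside 22.5% and 28.9% of all genes. The median log2 fold changes were -0.46 and -0.70, beside -0.02 and 0.02 over all genes. The gene that rose at 2 d in the line was PGIP4, an inhibitor of polygalacturonase, at 12 ± 6.37 CPM on CIM and 1.91 ± 0.209 CPM on N6 (log2 fold change 2.66, SE 0.53, adjusted p = 0.0095); the list held no call at 2 d without OEMIR393b N6 replicate 1 or 3 or 2 d replicate 1. In WT the pectin methylesterase gene OsPME17 rose to 8.06 ± 4.08 CPM at 2 d, against 0.478 ± 0.12 CPM on N6 (4.07, SE 0.75, adjusted p = 0.00091), and Os10g0508700 to 36.1 ± 7.66 CPM, against 8.19 ± 1.24 CPM (2.14, SE 0.26, adjusted p = 1.8e-05). OsPGL21 fell to 2.87 ± 0.408 CPM in WT, against 12.6 ± 3.21 CPM (-2.13, SE 0.61, adjusted p = 0.021), and OsPME24 had a count of 0 in all 3 WT libraries at 2 d, against 0.261 ± 0.155 CPM on N6 (adjusted p = 0.018).

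Of 10 further genes within 5 positions of OsBURP07 or OsBURP02, 4 had a count of 0 in every library, 3 of which follow OsBURP02 directly, and 5 were tested. None of the 5 was called at 2 d in either genotype, where 1.59% of all genes were called in the line and 8.31% in WT. The nearest tested one, OsAGP23, which encodes an arabinogalactan peptide, averaged 7.43 ± 0.33, 18.3 ± 1.29, 3.79 ± 3.12 and 1.56 ± 1.48 CPM in the line on N6 and at 2, 5 and 7 d, and 22.3 ± 11.6, 42.7 ± 9.08, 17.0 ± 1.49 and 10.4 ± 1.44 CPM in WT. It was lower in the line than in WT at 5 d by -2.16 (adjusted p = 0.015) and at 7 d by -2.72 (adjusted p = 0.0034), the direction opposite to that of OsBURP02. Os05g0215600 changed in WT by -1.52 at 5 d (adjusted p = 6e-07) and was higher in the line than in WT there by 1.11 (adjusted p = 2.2e-05), the direction of OsBURP02 at a smaller size. Os05g0215800 changed in WT by -1.04 at 7 d (adjusted p = 4.1e-08), and Os05g0215700 was lower in the line than in WT at 7 d by -1.54 (adjusted p = 0.0048).

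Around OsBURP17 8 of the 10 nearest genes were tested, and none was at 0 in every library. Os11g0171300, a gene for a chloroplast fructose-bisphosphate aldolase that overlaps a non-coding transcript of the opposite strand, averaged 40.4 ± 15.2 CPM at 2 d and 145 ± 22.1 CPM on N6 in the line, and 7.00 ± 3.53 CPM at 2 d and 23.2 ± 12.4 CPM on N6 in WT. Its fall at 2 d in the line (-1.84, adjusted p = 0.016) had the opposite sign to the change of OsBURP17. Os11g0170200 rose in WT by 1.62 at 5 d (adjusted p = 1.1e-05) and Os11g0170000, which overlaps Os11g0170100 of the opposite strand, by 1.45 (adjusted p = 0.016).

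The genes whose log2 CPM most resembled each chosen gene over the 24 libraries were found among all genes tested. For OsBURP02 they were Os07g0107100, a gene of the plant disease resistance response family, and AKR4C15, an aldose reductase gene, both with r = 0.98, followed by OsS40-5, Os10g0113100 and Os07g0640200 with r = 0.97. AKR4C15 averaged 74.3 ± 7.12, 42.8 ± 5.50, 33.9 ± 11.8 and 22.5 ± 5.83 CPM in the line on N6 and at 2, 5 and 7 d, and 43.8 ± 9.41, 9.62 ± 1.52, 1.04 ± 0.560 and 0.611 ± 0.170 CPM in WT. For OsBURP07 the closest was the zinc transporter gene ZIP3 (r = 0.93), at a mean of at most 1.66 CPM, followed by Os10g0163370 and Os11g0450400 (0.92) and by Os04g0188433 and Os04g0227000 (0.91). Os11g0450400, annotated as a sulfotransferase, averaged 37.8 ± 9.10 CPM on N6 in the line and 14 ± 8.89 CPM in WT, and 0.159 ± 0.135 CPM at 2 d in WT.

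For OsBURP17 the closest gene was OsIAA1 (r = 0.92), a member of the Aux/IAA family of auxin-response repressors, followed by Os02g0258800 (0.89), OsPGL32 (0.88), Os04g0475600 (0.87) and Os04g0453400 (0.87). OsIAA1 averaged 38.2 ± 2.04, 107 ± 2.02, 90.7 ± 2.70 and 113 ± 3.52 CPM in the line on N6 and at 2, 5 and 7 d, and 41.8 ± 2.70, 135 ± 13.2, 115 ± 9.28 and 92.8 ± 3.97 CPM in WT. OsPGL32 belongs to glycoside hydrolase family 28, the family of the polygalacturonases, although the words of its annotation kept it out of the pectin list. It averaged 37.7 ± 8.79 CPM at 2 d on CIM and 1.21 ± 0.496 CPM on N6 in the line, and 126 ± 31.4 CPM at 2 d and 2.35 ± 0.516 CPM on N6 in WT. Both genes, like OsBURP17, were at their lowest on N6 in each genotype, and all r values are descriptions over libraries that share their cultures.

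**Figure D5:**
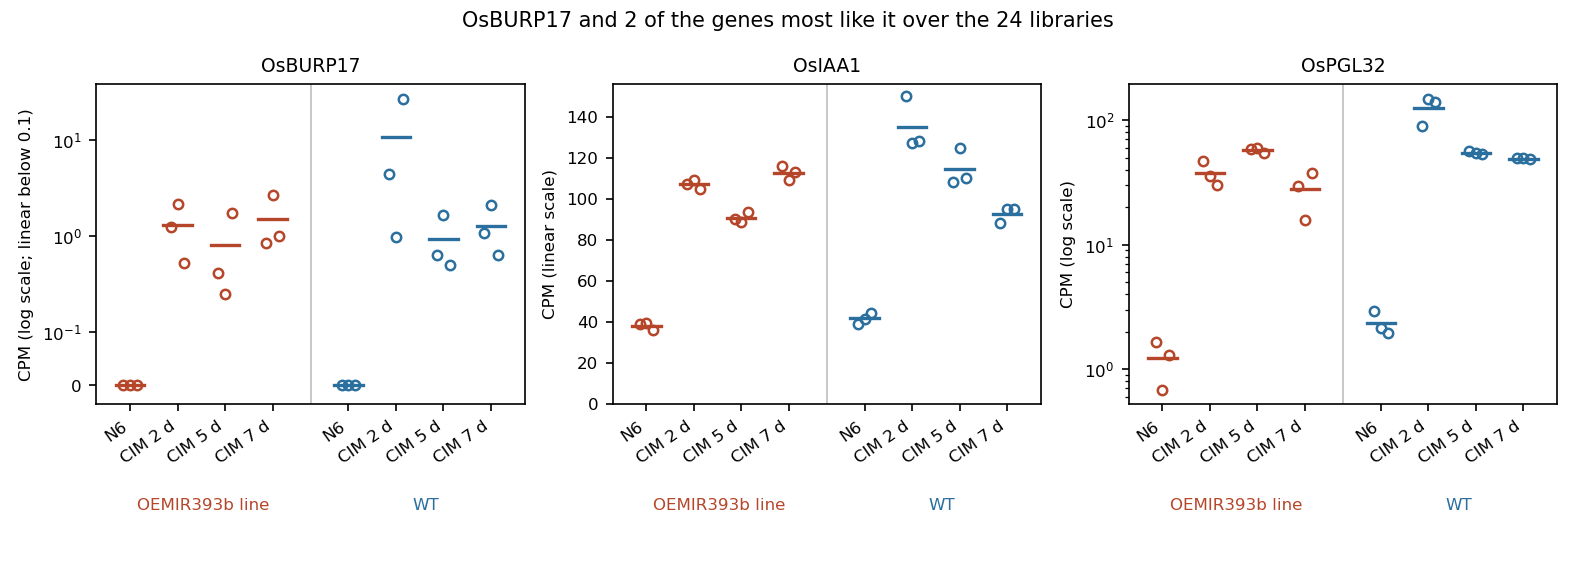
Circles are single libraries and bars the means of 3, with the OEMIR393b line to the left of WT, for OsBURP17 (logarithmic above 0.1 CPM, linear below), OsIAA1 (linear) and OsPGL32 (logarithmic). All 3 genes are lowest on N6 in both genotypes, and the WT mean at 2 d is the highest of the 8 means for each of them. The WT N6 and 2 d libraries took part in the choice of OsBURP17, and replicate 3 held 83.2% of its summed CPM in WT at 2 d.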

How the data were processed

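Scutella of an OEMIR393b line and of wild-type rice were compared by RNA-seq in 24 libraries. The submitters' notes name Trimmomatic 0.36, HISAT2 2.1.0, StringTie 1.3.4d and the build IRGSP-1.0, and the methods of the study add the removal of amplification duplicates by UMI-tools; from these the authors deposited estimated counts and FPKM per gene. Counts that cluster at multiples of about 4 make counting intervals uncertain. Estimated counts were rounded and tested in edgeR 4.0.16 (R 4.3.3) with TMM factors, filterByExpr, a group-means model over all 24 libraries, the quasi-likelihood test and Benjamini-Hochberg adjustment over 29710 genes; SE is the absolute log2 fold change divided by the square root of F. A call needed adjusted p below 0.05 and an absolute log2 fold change above 1. Library totals were 50341636 to 70796624 counts. The study calls the libraries of a group biological replicates, while the labels do not say whether they were separate cultures. The p-values measure the spread between these libraries. The fitting steps were tested on simulated data.

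Alternatives were RLE factors, library totals, DESeq2 1.42.0, each library left out, a block for the replicate number, fits of the compared groups alone, no filter, counts divided by 4, and limma 3.58.1 on log2(FPKM + 0.1) and log2(FPKM + 1). Samples were grouped by GEO's labels. The 3 genes and all lists were chosen with earlier results of these data known. Comparisons of the 3 genes that use the WT N6 or WT 2 d libraries, by which they were chosen, were fitted but are given with no test. In the other comparisons these libraries still entered the shared estimate of the spread. Named genes are the 3 genes, the other tested BURP genes, the 5 genes of the table on each side of each chosen gene, the 5 genes most like each by Pearson r of log2 CPM (prior count 2), OsTIR1 and OsAFB2, and of the pectin list the 2 highest and 2 lowest called fold changes at 2 d in each genotype. Lists were built from words in the table's names and descriptions, which also took GHD7 into the photosynthesis list and SOR1 into the root list. The root list and the others served as markers of other cell types. Protein and promoter sequences of the genes were not analysed here. Samples sharing a replicate number did not deviate together, and none was treated as a pair.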

Additional observations from a re-analysis of the deposited data

Results flagged for a closer look

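Among the 7 tested BURP genes other than OsBURP07, OsBURP02 and OsBURP17, 5 interactions passed the test of a difference between the genotypes in the change on CIM against N6, each in edgeR's quasi-likelihood test with Benjamini-Hochberg adjustment: none at 2 d, 3 at 5 d and 2 at 7 d, where 0.535%, 18.3% and 31.6% of all genes were called. For the RD22 gene Os01g0733500 the change at 5 d was 2.61 higher in the line (SE 0.86, adjusted p = 0.025), a call lost without OEMIR393b N6 or 5 d replicate 3 or WT 5 d replicate 1 or 3 (adjusted p 0.052 to 0.059). For OsBURP01 it was 3.01 higher at 5 d (SE 0.85, adjusted p = 0.011) and 2.73 higher at 7 d (SE 0.85, adjusted p = 0.013). For OsBURP12 it was -2.45 at 7 d (SE 0.55, adjusted p = 0.0012), the opposite sign. For the RD22 gene Os10g0409400, at 0 in WT at 5 d, the 5 d interaction had adjusted p = 0.038, which rose to between 0.051 and 0.075 without any 1 of 9 libraries (OEMIR393b N6 replicates 1 and 2 and 5 d replicates 2 and 3, WT N6 replicates 1 and 2 and the 3 WT 5 d libraries). Groups of 3 libraries are too small for a test of single outlying libraries.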

How the results depend on the processing

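Of 16 tested results on OsBURP07, OsBURP02 and OsBURP17, 6 kept their direction and their side of the threshold under every alternative; over the 16, the 24 libraries left out in turn gave 360 unchanged outcomes, 19 lost calls and 5 changes of sign, and the other settings 142 unchanged outcomes, 12 lost calls, 2 gained calls and 4 changes of sign. In the line the log2 fold change of OsBURP07 ran from -4.81 to -3.32 at 2 d and from -2.85 to -2.01 at 5 d with 1 library left out, and at 5 d it was -2.39 without a call under DESeq2. For OsBURP17 the adjusted p at 2 d in the line ran from 0.005 to 0.084, and the line against WT from -1.48 to 0.48 at 5 d and -0.46 to 0.82 at 7 d. With only the groups compared, the step between 5 and 7 d in the line lost its call for OsBURP07 (adjusted p = 0.08) and OsBURP02 (-3.41), and OsBURP02 gained one at 2 d (-1.81). Counts divided by 4 gave OsBURP17 adjusted p = 0.089 at 2 d and 0.052 at 5 d in the line. A further 13 values use libraries that chose the genes and have no test; 1 of them moved by more than the spread between replicates, OsBURP02 in the line against WT at 2 d (5.8 on log2(FPKM + 1), against 6.43). With 1 library left out OsBURP02 ran from 1.16 to 2.37 for the line against WT on N6 and from 4.07 to 5.28 for the difference in its change at 2 d, and OsBURP17 from -3.63 to -1.06 for the line against WT at 2 d.

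On log2(FPKM + 1), which understates low genes, OsBURP17 lost its calls against N6 in the line at 2, 5 and 7 d (adjusted p = 0.59, 0.61 and 0.31), and OsBURP02 gained one at 2 d in the line (-1.9). On log2(FPKM + 0.1) OsBURP17 lost its calls in the line at 2 d (adjusted p = 0.086, and 0.098 unfiltered) and 5 d (0.1 and 0.12). OsBURP17 in the line against WT at 7 d changed sign with library totals (-0.33) and on FPKM (-0.3 with 0.1 added, filtered or not, and -0.13 with 1 added). The cause of these changes was not tested.

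Libraries of the same replicate number did not deviate together (mean correlation -0.00801, against 0.00401 for other numbers), so that they share only a number; with the replicate block the 7 d change of OsBURP02 in the line was -5.78, and no call of the 3 genes changed, while Os01g0733500 at 5 d in the line (adjusted p = 0.057), OsBURP09 at 7 d in WT (0.065) and the 5 d interaction of Os10g0409400 (0.057) lost theirs. Called BURP genes, of 10 with the 3 chosen ones included, numbered 2 at 2 d in the line (0 to 2 with 1 library out, 4 with only the groups compared) and 3 between 5 and 7 d (0 with only those groups). The line against WT at 2 d and the 5 d interaction use libraries that chose the genes. The fits called 3 (5 under DESeq2) and 5 (2 to 6) BURP genes there, of which 1 and 3 were not among the chosen genes. The calls of the chosen genes in these comparisons are no test. Over all genes the 2 d count in the line was 471 (249 to 951 over all alternatives), that at 5 d 3138 (1990 on log2(FPKM + 1)), that at 7 d 6677 (4339 on that scale), that between 5 and 7 d 2103 (86 with only those groups), that between genotypes on N6 882 (428 to 1380), that at 2 d 1975 (1119 at the lowest) and that of the 2 d interaction 159 (66 to 629). Depth limits OsBURP17 and OsBURP07 on CIM, where low counts stand for few fragments, and 3 libraries per group leave the spread poorly known.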
